A study of Homo sapiens with 12 samples.

Results

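DNA mismatch repair corrects base mismatches and small insertion or deletion loops that DNA polymerases leave behind. MutS complexes bind the mispaired DNA, MutL complexes are recruited and nick the new strand, an exonuclease removes the stretch with the error, and a replicative polymerase fills the gap. In dividing cells the pathway acts mainly behind the replication fork, and its loss gives unstable repeats and a high mutation rate. The 6 genes described here were chosen by name, as rows of both deposited tables with that symbol, out of 26485 genes listed. MSH6 is the subunit particular to MutS-alpha, which binds base mismatches and the smallest loops, and MSH3 is the subunit particular to MutS-beta, which binds larger loops. PMS2 carries the nicking activity of MutL-alpha, PMS1 belongs to MutL-beta, whose part in repair is minor, and MLH3 belongs to MutL-gamma, known mainly from meiotic crossing over. EXO1 is the exonuclease of the pathway.

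HEK293T is a human embryonic kidney cell line that carries the SV40 large T antigen. Cas9 is a nuclease that an sgRNA guides to a matching DNA site. The cells were transfected with polyethylenimine and a plasmid of the PX330-GFP type, and polyA RNA was sequenced. The plasmid carried Cas9 or no Cas9, with either the luciferase sgRNA or the 6T sgRNA, whose target the labels do not give, so every library came from transfected cells with an sgRNA plasmid. There were 12 libraries in 4 groups of 3, all from the same cell line, and the labels do not say whether the libraries of a group came from separate cultures. The p-values therefore measure the spread between these samples only, and in bulk RNA fewer expressing cells and less RNA per cell cannot be told apart. Each deposited table holds the conditions B and A of one sgRNA. Neither table states which of B and A was the Cas9 condition, and B need not be the same treatment in both, so each difference is B over A as the tables have it.

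Library values were recovered from the deposited means, and the libraries are numbered within a group by size factor, with no link to a replicate number. Reads in genes came to between 6658152 and 8294165 in the 6T libraries of condition B and between 6354743 and 8258999 in those of condition A. They came to between 19399540 and 38079106 in the Luciferase libraries of condition B and between 5884892 and 8242529 in those of condition A, so depth went with condition under that sgRNA. Among the HEK293T markers, KRT8 had 1202 to 1669 and NEFM 2739 to 4317 normalized reads over the 12 libraries. The T cell marker CD3E was at 0 in all 12 and the leukocyte marker PTPRC in 10. The monocyte marker CD14 had 2.45 to 11.6 normalized reads. Of the fibroblast markers, COL1A1 had 457 to 595 normalized reads in every library and DCN had 0 to 9.10, with 2 libraries at 0. Libraries 6T A2 and Luciferase A1 stood apart in how their values followed the GC content of genes, and each comparison that holds them is also given without both.

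Stretches of the promoter windows of 3 of these genes are shown, with some of the motif matches found in the 6 genes. All 6 genes matched the RefSeq promoter table (GRCh38.p14), which runs from 250 bases before to 50 bases after a start. The cyclic AMP response element TGACGTCA, in capitals in the first 2 sequences, was found in EXO1 and PMS2 and in 1.98% of 27305 promoters. The E2F-type motif TTTCGCGC, in capitals in the third, was found in EXO1 and MSH3 and in 0.546% of promoters. In MSH6, the capitals mark matches on either strand to the GC box GGGCGG and the box CCAAT, which were in 44.6% and 35.7% of promoters.
EXO1, 69 to 40 bases before the start, chr1:241848135-241848164, plus strand: ttgcgggatacgcgtTGACGTCAcatcctc
PMS2, 120 bases before the start, chr7:6009107-6009226, minus strand: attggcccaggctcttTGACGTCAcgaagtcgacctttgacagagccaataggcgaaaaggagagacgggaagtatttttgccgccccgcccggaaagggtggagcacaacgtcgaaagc
EXO1, 5 bases before to 25 bases after the start, chr1:241848199-241848228, plus strand: aggtcagccTTTCGCGCgctgtgtaggcaa
MSH6, 130 bases before the start, chr2:47783015-47783144, plus strand: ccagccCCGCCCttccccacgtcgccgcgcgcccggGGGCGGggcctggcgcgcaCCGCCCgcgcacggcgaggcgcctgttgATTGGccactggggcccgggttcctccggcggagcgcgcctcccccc

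All motifs were searched on both strands, and a match describes letters, not a bound site. The second E2F-type motif searched, TTTGGCGC, was in 0.659% of promoters and, among the 6 genes, in MSH3, where it overlapped the TTTCGCGC match. Its first base lay 107 bases before the start. GGGCGG was found in 5 of the 6 genes and CCAAT in 3. The MLH3 window held none of the 5 motifs. PMS1 held 1 match to GGGCGG and 2 to CCAAT.

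**Figure D1:**
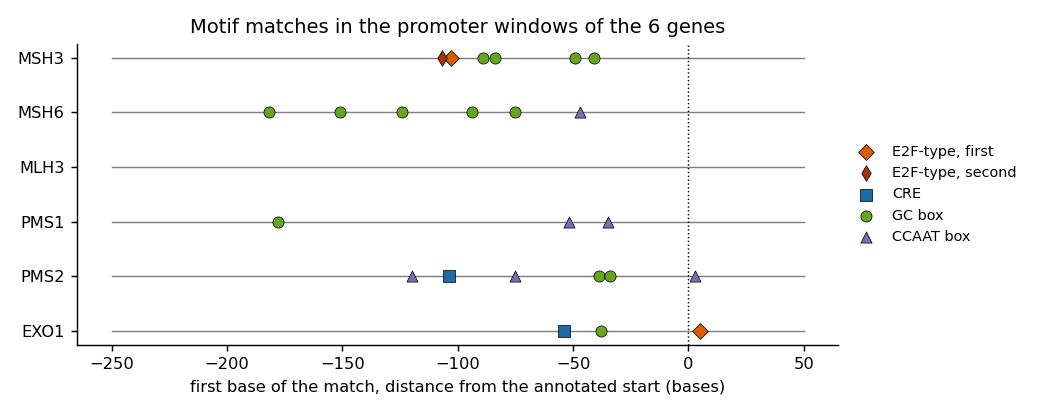
Motif matches in the promoter windows of the 6 genes; the horizontal axis is the distance of the first base of each match from the annotated start, in bases, and each symbol is 1 kind of motif. EXO1 and PMS2 hold the CRE match, MSH3 and EXO1 an E2F-type match, and MLH3 none of the 5 motifs.

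The genes lie on 5 chromosomes of GRCh38.p14 and are all protein coding. MSH6 (RefSeq gene 2956) spans chr2:47783145-47810101 on the plus strand and PMS1 (5378) spans chr2:189784450-189877629 on the plus strand. MSH3 (4437) spans chr5:80654652-80876815 on the plus strand. PMS2 (5395) spans chr7:5970925-6009106 and MLH3 (27030) spans chr14:75013775-75051467, both on the minus strand. EXO1 (9156) spans chr1:241847986-241889939 on the plus strand. The start used for EXO1 in the promoter table lies inside this span.

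Levels can be compared between genes once normalized reads are divided by length. EXO1 averaged 430 and MSH6 353 normalized reads per kilobase of coding sequence over the 12 libraries. The ratio of EXO1 to MSH6 on this scale was between 1.01 and 1.82 in every library, so EXO1 was the higher of the pair throughout, by little in some. PMS2 followed with 130 and ranged over libraries between 118 and 141. PMS1 had 58.5 and MSH3 had 54.6, and their ranges of 24.8 to 96.9 and 33.4 to 76.1 overlapped, so the order of these neighbours was not fixed. MLH3 was the lowest with 5.29. Per kilobase of the principal transcript, UTRs included, the levels were 314 for EXO1, 193 for MSH6, 117 for PMS2, 50.7 for PMS1, 45.5 for MSH3 and 2.92 for MLH3, in the same order. Among the 14004 genes tested, the mean normalized reads of MSH6 lay at percentile 89.7, those of EXO1 at 84.7 and those of MLH3 at 8.25.

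The mismatch binding subunits come first. MSH6 had 2137, 1390 and 1363 normalized reads in the 6T libraries of condition B, against 1424, 2157 and 1271 in those of condition A. It had 1276, 1649 and 1587 normalized reads in the Luciferase libraries of condition B, against 563, 1315 and 1159 in those of condition A. The 6T groups overlapped almost entirely, each with 1 high library, and under Luciferase the library A1 was the lowest of all 12. Group means were 1630 ± 439 in 6T condition B, 1617 ± 473 in 6T condition A, 1504 ± 200 in Luciferase condition B and 1012 ± 396 in Luciferase condition A (SD, n = 3 each).

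MSH3 had 249, 233 and 189 normalized reads in the 6T libraries of condition B, against 194, 260 and 168 in those of condition A. It had 150, 201 and 206 normalized reads in the Luciferase libraries of condition B, against 114, 144 and 129 in those of condition A. The 6T groups overlapped, while under Luciferase every library of condition B was above every library of condition A, and condition A of Luciferase was also below every 6T library. Group means were 224 ± 31.2 in 6T condition B, 207 ± 47.3 in 6T condition A, 186 ± 30.8 in Luciferase condition B and 129 ± 14.9 in Luciferase condition A (SD, n = 3 each).

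The balance of MSH6 to MSH3 is given here as RNA of the particular subunits of MutS-alpha and MutS-beta, and protein was not measured. Its size depends on whether coding or transcript length is used. Per kilobase of coding sequence, MSH6 was 6.07 ± 1.10 times MSH3 in 6T condition B and 6.47 ± 0.419 times in 6T condition A (SD, n = 3 each). It was 6.80 ± 0.330 times MSH3 in Luciferase condition B and 6.44 ± 2.00 times in Luciferase condition A (SD, n = 3 each). Single libraries ran between 4.13 and 7.64, both in Luciferase condition A. Exact two-sided permutation tests of the log2 ratio gave p = 0.6 for B against A under 6T and p = 1 under Luciferase, where the smallest p that 3 libraries against 3 allow is 0.1. No shift of the balance was detectable with this number of libraries.

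Of the MutL genes, PMS2 was steady. It had 328, 362 and 338 normalized reads in the 6T libraries of condition B, against 365, 343 and 345 in those of condition A. It had 310, 345 and 323 normalized reads in the Luciferase libraries of condition B, against 304, 346 and 315 in those of condition A. All 4 groups overlapped in these values, and the highest library was 1.20 times the lowest. Group means were 342 ± 17.5 in 6T condition B, 351 ± 11.8 in 6T condition A, 326 ± 17.7 in Luciferase condition B and 322 ± 22.0 in Luciferase condition A (SD, n = 3 each). The coefficient of variation within a group was between 3.35% and 6.83%. The SD of its log2 values over the 12 libraries lay at percentile 2.51 among the genes tested, against 96.5 for PMS1 and 92.8 for MSH6.

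The tables list 8 other genes whose symbols begin with PMS2, taken here as its copies. Their likeness to PMS2 in sequence was not measured. Between 37.8% and 45.0% of the reads assigned to PMS2 and these copies lay in the copies, of which PMS2P1 had the most, with a mean of 118 normalized reads. The share of PMS2 reads lost to or gained from copies depends on the authors' alignment and counting, so the level of PMS2 is uncertain.

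PMS1 varied most. It had 211, 202 and 146 normalized reads in the 6T libraries of condition B, against 192, 271 and 115 in those of condition A. It had 112, 172 and 243 normalized reads in the Luciferase libraries of condition B, against 69.4, 108 and 120 in those of condition A. Groups overlapped in both pairs, and the highest library, 6T A2, was 3.90 times the lowest, Luciferase A1. Per kilobase of coding sequence PMS2 was 2.20 ± 0.780 times PMS1 in Luciferase condition B and 3.68 ± 0.967 times in Luciferase condition A (SD, n = 3 each). An exact two-sided permutation test of that log2 ratio gave p = 0.2. The corresponding means under 6T were 2.04 ± 0.424 times in condition B and 2.22 ± 0.948 times in condition A (SD, n = 3 each), with an exact permutation p = 0.9.

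MLH3 rested on few reads, between 7 and 98 a library, and its values carry a large counting error. It had 21.2, 27.9 and 19.1 normalized reads in the 6T libraries of condition B, against 33.8, 33.7 and 14.7 in those of condition A. It had 25.9, 22.7 and 25.1 normalized reads in the Luciferase libraries of condition B, against 11.6, 21.7 and 19.4 in those of condition A. The 6T groups overlapped and the Luciferase groups did not, with condition B higher. The lowest value of Luciferase condition B was 22.7 and the highest of condition A was 21.7, a small gap at this depth.

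EXO1, which digests the nicked strand, had 1339, 1223 and 1178 normalized reads in the 6T libraries of condition B, against 1198, 1520 and 990 in those of condition A. It had 898, 1181 and 1255 normalized reads in the Luciferase libraries of condition B, against 638, 829 and 852 in those of condition A. The 6T groups overlapped. Under Luciferase condition B lay above condition A without overlap, and Luciferase condition A lay below every 6T library. Group means were 1247 ± 83.0 in 6T condition B, 1236 ± 267 in 6T condition A, 1111 ± 188 in Luciferase condition B and 773 ± 118 in Luciferase condition A (SD, n = 3 each).

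**Figure D2:**
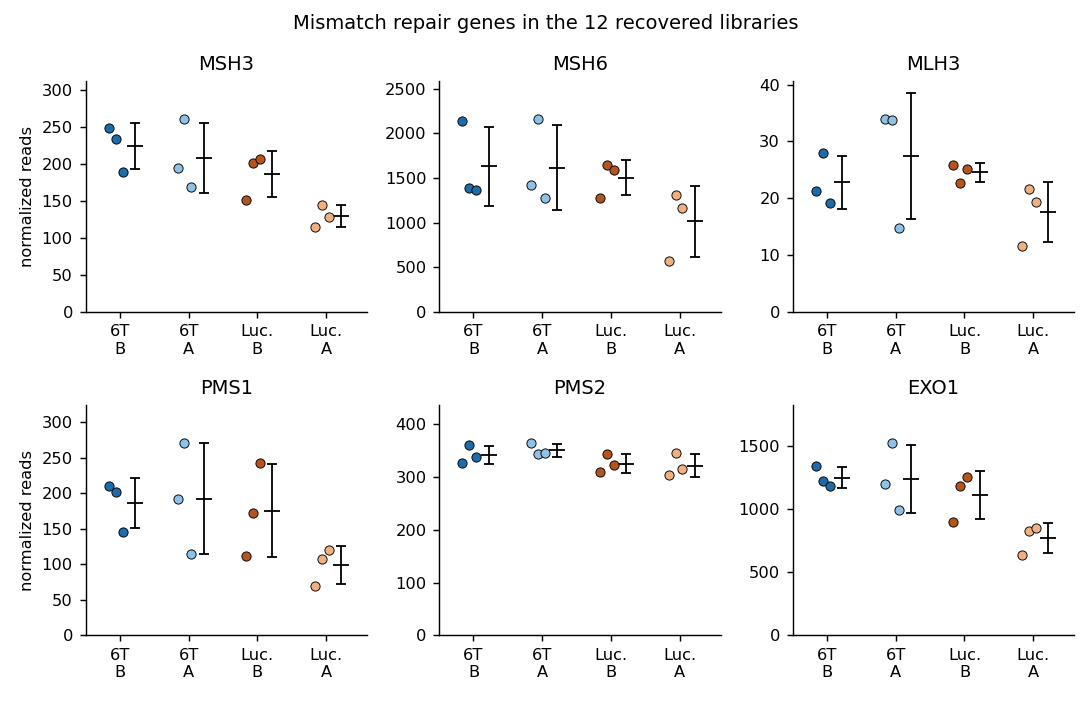
Normalized reads (vertical axis, from 0) of each gene in each library, as points, with the group mean and SD beside them (n = 3 a group); Luc. is the luciferase sgRNA. PMS2 lies between 304 and 365 in every library, while MSH3 and EXO1 in Luciferase condition A lie below all other groups.

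The plot of values by library shows Luciferase condition A with the lowest group mean in all 6 genes, by less than the spread of the libraries in PMS2.

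The first comparison was condition B against condition A under the 6T sgRNA. No gene of the 6 differed between them beyond the spread of the libraries. The log2 differences, from limma on log2(normalized reads + 1), were 0.12 for MSH3, 0.02 for MSH6, −0.18 for MLH3, 0.02 for PMS1, −0.04 for PMS2 and 0.03 for EXO1. None of the 6 passed an adjusted p under 0.05, with 0.0214% of all genes called, and none had an unadjusted p under 0.05, with 3.09% of all genes below it. Every adjusted p of the 6 in limma was 1.00 after rounding. The 95% interval was narrowest for PMS2, at −0.25 to 0.17, and widest for MLH3, at −0.89 to 0.52. Without both 6T A2 and Luciferase A1, none passed either, and the differences were 0.30 for MSH3, 0.24 for MSH6, 0.01 for MLH3, 0.30 for PMS1, −0.05 for PMS2 and 0.19 for EXO1. In the authors' deposited table the 6 log2 fold changes lay between −0.27 for MLH3 and 0.11 for MSH3, every adjusted p was 1, and 0.0416% of genes were called.

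Under the Luciferase sgRNA, 5 of the 6 genes were higher in condition B by more than 0.5 log2 units, without passing the adjusted test, and PMS2 was level. The log2 differences were 0.79 (SE 0.325) for PMS1, 0.65 (SE 0.284) for MSH6, 0.52 (SE 0.164) for EXO1, 0.52 (SE 0.182) for MSH3 and 0.51 (SE 0.329) for MLH3. That of PMS2 was 0.02 with a 95% interval of −0.19 to 0.23. No gene passed the limma threshold after adjustment, where the adjusted p lay between 0.444 and 0.936 and 0% of all genes were called. The unadjusted limma p was under 0.05 for 4 of the 6, at 0.00714 for EXO1, 0.0138 for MSH3, 0.0306 for PMS1 and 0.0386 for MSH6, and 10.7% of all genes tested lay below 0.05. The members' median of 0.52 stood beside a median of 0.00 over all genes tested, of which 50.2% were above 0.

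MSH3, MLH3 and EXO1 did not overlap between the Luciferase conditions, all higher in B, and 6.51% of all genes tested did the same. In the authors' deposited table, EXO1 had a log2 fold change of 0.52 with an unadjusted p of 0.0250, and MSH3 had 0.53 with an unadjusted p of 0.0330. The authors' deposited table gave the other 4 genes an unadjusted p above 0.05, with 1.22% of all genes below it. Every adjusted p of the 6 genes in the authors' deposited table was 1, and 0% of all genes were called. With limma weights that let each library vary by its own amount, EXO1 and MSH3 passed, with an adjusted p of 0.0316 and 0.0385. In that fit 267 genes, or 1.91% of all tested, were called. Its weights were uneven, at 0.664, 5.22 and 1.31 for Luciferase B1, B2 and B3. For Luciferase A1, A2 and A3 they were 0.242, 1.21 and 2.22. Without Luciferase A1, the log2 differences were 0.55 for PMS1, 0.43 for MSH3, 0.39 for EXO1, 0.28 for MSH6, 0.25 for MLH3 and −0.02 for PMS2, and they were the same without both Luciferase A1 and 6T A2. The members with an unadjusted limma p under 0.05 then numbered 2, EXO1 and MSH3. Without Luciferase B3 the difference of PMS1 was 0.52, and 1 member, EXO1, had an unadjusted p under 0.05. Without Luciferase B2 there was also 1. The depth of the libraries differed between these conditions, and its part in the result was not tested.

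The Luciferase sgRNA was then set against the 6T sgRNA within a condition letter. This crosses the deposited tables, which share one normalization. If A is a different treatment in each table, the sgRNA and Cas9 cannot be told apart here. In condition A, all 6 genes had lower means under Luciferase. The log2 differences were −0.90 (SE 0.325) for PMS1, −0.73 (SE 0.284) for MSH6, −0.67 (SE 0.164) for EXO1, −0.66 (SE 0.182) for MSH3, −0.57 (SE 0.329) for MLH3 and −0.13 (SE 0.0968) for PMS2. No member passed, with the adjusted limma p at 0.0602 for EXO1, 0.0645 for MSH3 and 0.0951 for PMS1, and 0.0643% of all genes were called. The unadjusted p was under 0.05 for 4 of the 6, against 31.4% of all genes tested. MSH3 and EXO1 did not overlap between the groups and were lower under Luciferase, as were 16% of all genes tested. The members' median was −0.66 and that of all genes tested −0.01, with 48.7% of all genes tested above 0.

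This is the comparison in which a call on EXO1 and MSH3 turned with the setting. Without the library Luciferase A2, both passed, with a limma adjusted p of 0.0439 for EXO1 and 0.0479 for MSH3, in a fit that called 1030 genes, or 7.36% of all tested. Scaling by total reads gave EXO1 an adjusted p of 0.0487, with 2.02% of all genes called, and scaling by the upper quartile 0.0419, with 4.82% called. Library weights gave EXO1 0.0183 and MSH3 0.0276, with 12.2% of all genes called. Without both 6T A2 and Luciferase A1, no member passed, and the log2 differences were −0.37 for EXO1, −0.41 for MSH3, −0.38 for PMS1, −0.12 for MSH6, −0.12 for MLH3 and −0.10 for PMS2.

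In condition B, the sgRNAs differed little in these genes. The log2 differences of Luciferase over 6T were −0.27 for MSH3, −0.18 for EXO1, −0.14 for PMS1, −0.09 for MSH6, −0.07 for PMS2 and 0.12 for MLH3. None of the 6 passed in limma after adjustment, with 0% of all genes called and adjusted p between 0.949 and 0.988. None had an unadjusted p under 0.05, with 5.41% of all genes below it. The groups overlapped for every one of the 6. A difference of 1 log2 unit lay outside the 95% interval of each member.

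The change of B over A was then compared between the sgRNAs in one limma model. This difference was positive for all 6, at 0.77 (95% interval −0.22 to 1.76) for PMS1, 0.69 (−0.31 to 1.69) for MLH3, 0.64 (−0.23 to 1.50) for MSH6, 0.49 (−0.01 to 0.99) for EXO1, 0.39 (−0.16 to 0.95) for MSH3 and 0.06 (−0.24 to 0.35) for PMS2. Of all genes tested, 54.2% were above 0 in this difference. No member passed, with adjusted p of 0.485 or more and 0% of all genes called. No member had an unadjusted p under 0.05 either, with 0.0551 for EXO1 as the smallest, while 9.42% of all genes lay below it. Without both 6T A2 and Luciferase A1, the differences were 0.25 for PMS1, 0.24 for MLH3, 0.19 for EXO1, 0.13 for MSH3, 0.03 for MSH6 and 0.03 for PMS2. Without Luciferase A1 alone, MSH6 had 0.26 and MLH3 0.43, and without 6T A2 alone, PMS1 had 0.48, MSH6 0.41 and MSH3 0.22. After correction of each library for its trend with GC content, PMS1 had 0.27, EXO1 0.24, MSH3 0.02 and PMS2 −0.12. A difference between the sgRNAs in the B over A change of these genes was therefore not shown. If B is a different treatment under each sgRNA, this contrast is not a difference in the response to Cas9. The 5 comparisons share libraries, so their values are not independent of each other.

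**Figure D3:**
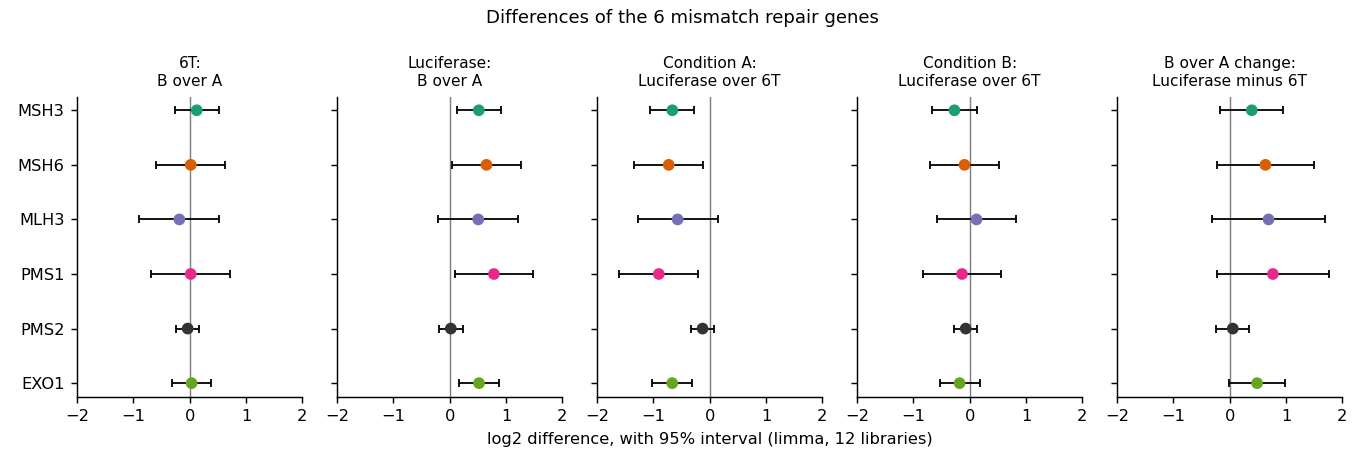
Log2 differences (horizontal axis) of the 6 genes in the 5 comparisons, from limma over 12 libraries, with 95% intervals as bars. PMS2 lies close to 0 in each panel, and the other 5 genes lie to the right under Luciferase B over A and to the left under Luciferase over 6T in condition A.

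The plot of log2 differences shows 5 genes on the same side of 0 in both these comparisons, so their values were set beside properties of the libraries. In the library 6T A2 all 6 genes were above their own mean, by a mean log2 deviation of 0.52, and in Luciferase A1 all 6 were below it, by a mean of −0.80. All 6 were also above it in 6T B2, 6T A1 and Luciferase B2, and below it in Luciferase A3. Of the 12 libraries, 6T A2 and Luciferase A1 had the steepest trends of all genes with GC content. The slopes were −0.24 log2 units per 10 percentage points of GC in 6T A2 and 0.39 in Luciferase A1. In the other 10 libraries the slope lay between −0.14 and 0.13. After the GC correction the members' mean deviation was 0.27 in 6T A2 and −0.41 in Luciferase A1. All 6 members have less GC than the median gene. PMS1 has 37.5% GC in its transcript, MSH3 41.2%, EXO1 44.5%, MLH3 45.0%, PMS2 46.2% and MSH6 47.2%, against a median of 50.3% over the genes tested with a GC value.

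**Figure D4:**
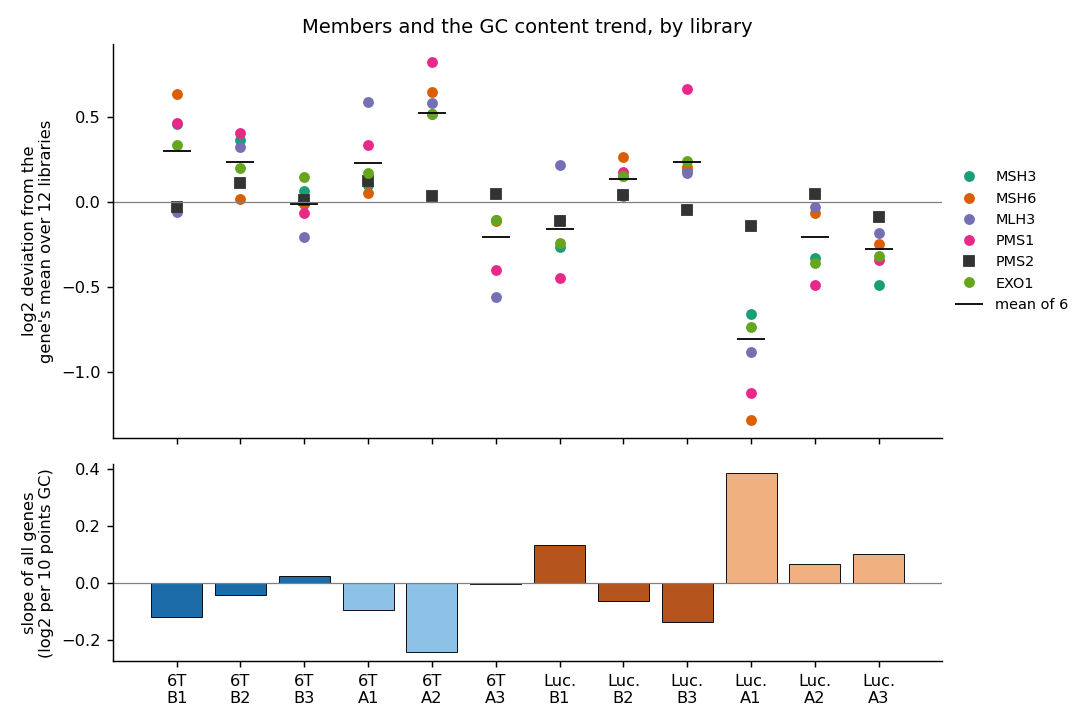
Upper panel, log2 deviation of each gene from its own mean over the 12 libraries, with the mean of the 6 as a bar; lower panel, slope of all genes' deviations against GC content, in log2 units per 10 percentage points. Members are highest in 6T A2 (mean 0.52), where the slope is −0.24, and lowest in Luciferase A1 (mean −0.80), where it is 0.39.

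Across 13260 genes, which are not independent replicates, the log2 difference of Luciferase B over A followed GC content with a Spearman rho of −0.69, and that of Luciferase over 6T in condition A with 0.73. After a correction of each library for its GC trend, the Luciferase B over A differences were 0.57 for MSH6, 0.36 for PMS1, 0.35 for MLH3, 0.34 for EXO1, 0.22 for MSH3 and −0.10 for PMS2. For Luciferase over 6T in condition A they were −0.59 for MSH6, −0.41 for EXO1, −0.37 for PMS1, −0.34 for MLH3, −0.26 for MSH3 and 0.05 for PMS2. The difference of PMS1 moved the most of the 6 in both comparisons and that of MSH6 kept most of its size. The SD of log2 values over the 12 libraries became 0.26 after correction, against 0.57 before it, for PMS1, and 0.43, against 0.49, for MSH6. For PMS2 it was 0.07 after correction and 0.08 before. No member passed in either comparison after the correction.

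**Figure D5:**
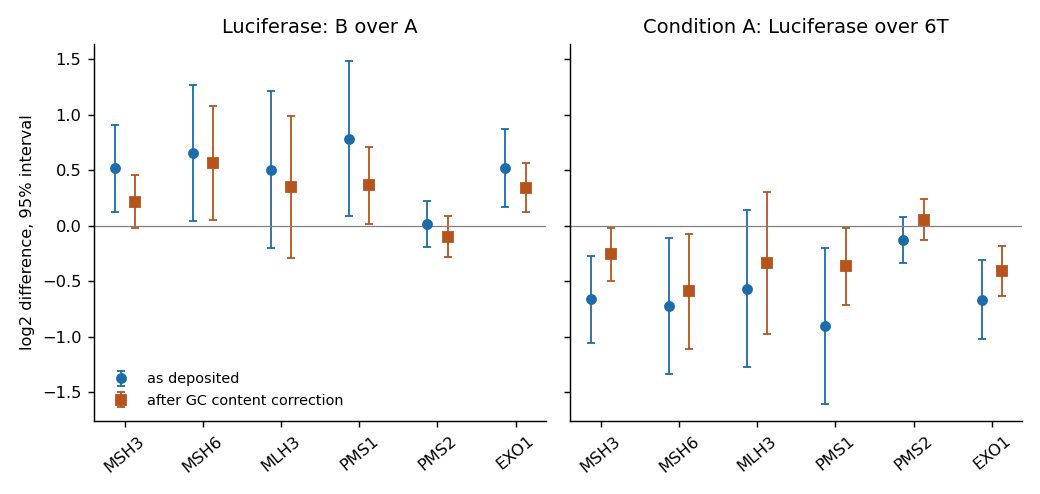
Log2 differences (vertical axis) of the 6 genes from limma, with 95% intervals. Circles, labelled as deposited, are the fit to the recovered reads without a GC correction. Squares are the fit after correction of each library for its trend with GC content. In both comparisons the corrected values lie nearer 0 for PMS1 and MSH3 and change little for MSH6.

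As the plot of corrected differences shows, PMS2 crossed 0 in both comparisons, so its direction depends on this setting. The log2 values of the 6 genes were each scaled by their own SD over the 12 libraries and then averaged. Most like this mean were NCK1 and ADD3 with a Pearson r of 0.99 each. AP3M1, TSPAN6 and NMD3 followed with 0.98 each. The transcripts of these 5 genes had, in this order, 41.1%, 42.4%, 42.2%, 43.8% and 43.4% GC. This likeness is a description over 12 libraries that share size factors and GC trends, and 15.4% of the genes tested reached an r of 0.8. Set against the mean of the other 5 members, scaled in the same way, r was highest for EXO1 at 0.95 and lowest for PMS2 at 0.56.

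Of the partners that complete repair, the list held 14 genes of the sliding clamp, its loader, the single-strand binding complex, polymerase delta and the ligase, and all 14 were tested. None passed in any of the 5 comparisons. Of all genes tested, 50.2% were above 0 under Luciferase B over A and 48.7% for Luciferase over 6T in condition A. In the difference between sgRNAs 54.2% were. Under Luciferase B over A, 9 of the 14 were above 0 and 5 below, with a median of 0.05, or −0.0048 after the GC correction. RFC2 had −0.23 and RFC4 had 0.30, both loader subunits, with an adjusted limma p of 0.444 each. For Luciferase over 6T in condition A 5 were above 0 and 9 below, the median was −0.16, or −0.06 after the GC correction, and RFC4 had −0.57 with an adjusted p of 0.0539, close to the threshold. Under 6T B over A the median was −0.02, and RFC5, another loader subunit, had −0.15. In the difference of B over A between sgRNAs, 9 of the 14 were above 0 and 5 below. The median there was 0.15, or −0.02 after the GC correction. POLD1, the catalytic subunit of polymerase delta, had −0.38 there, with an adjusted limma p of 0.485, opposite in sign to the members.

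Related genes were a list of 7, of which 6 were tested, with none called in any comparison. HMGB1, a chromatin protein that takes part in mismatch repair in vitro, had 0.52 under Luciferase B over A with an adjusted limma p of 0.444. It had −0.82 for Luciferase over 6T in condition A with an adjusted p of 0.0667. MCM8, a helicase of homologous recombination, had 0.27 and −0.42 in those comparisons. MSH5, a MutS gene of meiosis, had 0.59 under 6T B over A with a 95% interval of −0.38 to 1.56. MCM9, the partner of MCM8, had −0.29 under 6T B over A and 0.50 in the difference between sgRNAs. The medians of this list were 0.18 for Luciferase B over A and −0.26 for Luciferase over 6T in condition A, and after the GC correction they were −0.03 and 0.0042.

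Mismatch repair genes are higher in cycling cells, so 14 genes of DNA replication and the cell cycle were set beside them. None of the 14 passed in any comparison. Their median was 0.12 under Luciferase B over A and −0.07 for Luciferase over 6T in condition A, where the members had 0.52 and −0.66. After the GC correction the medians were 0.03 and −0.0018 for this list and 0.35 and −0.35 for the members. Of the 14, 8 were above 0 and 6 below in the first of these comparisons, and 7 and 7 in the second. Of all genes tested, 50.2% and 48.7% were above 0 in these comparisons. TOP2A, a topoisomerase of dividing cells, had 0.61 under Luciferase B over A, and MCM6 had 0.24, each with an adjusted limma p of 0.444. MCM2, a subunit of the replicative helicase, had 0.24 for Luciferase over 6T in condition A, with an adjusted p of 0.0710, opposite in sign to the members. CCNE1, a cyclin of the start of S phase, had −0.37 there, with an adjusted p of 0.0695. MKI67, a marker of proliferation, had −0.22 under 6T B over A and 0.33 for Luciferase over 6T in condition B. CDT1, a factor of replication licensing, had −0.41 in the difference between sgRNAs. Of the list, 10 were above 0 and 4 below in that difference, with a median of 0.18, or 0.03 after the GC correction. Over all genes tested, 54.2% were above 0 in it.

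Finally, 2 of the 6 genes start next to a gene on the opposite strand. ORMDL1, a regulator of sphingolipid synthesis, starts 111 bases upstream of PMS1, and AIMP2, a scaffold of the tRNA synthetase complex, starts 166 bases upstream of PMS2. ORMDL1 averaged 334 ± 56.2 normalized reads in Luciferase condition B and 257 ± 59.0 in Luciferase condition A (SD, n = 3 each). Its log2 difference was 0.39 there and −0.73 for Luciferase over 6T in condition A, with an adjusted limma p of 0.444 and 0.0630. AIMP2 averaged 800 ± 44.4 normalized reads in Luciferase condition B and 886 ± 41.8 in Luciferase condition A (SD, n = 3 each). Its differences were −0.15 and 0.33, with an adjusted p of 0.557 and 0.0963. Neither neighbour was called. Whether the counting used strand is not given in the sources used here, so reads of gene pairs that overlap cannot be assigned with certainty.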

How the data were processed

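Reads were aligned with STAR to hg38, counted with HTSeq and compared with DESeq, per the submitters' processing notes; versions are not given in the sources used here. There is 1 deposited table for each sgRNA. In it, the signal of a gene is its mean normalized read count, for 3 libraries per condition, per the file headers. The ratio column is the authors' fold change, condition B over A, and the log2 column its deposited log2. p-values, raw and adjusted, are those of the authors' DESeq run, as deposited. The 5 rows that name no gene held 38.6% to 42.3% of normalized reads, with 19.4% to 24.6% not uniquely aligned, and were left out.

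Whole reads per library were recovered from the 15 digits of the deposited means, as the only whole numbers found that give a gene's mean. For genes with higher means, only values within a fixed range around the mean were searched, so a solution is single within that range. A single solution was found for 99.64% to 99.99% of genes above 0, and 74 genes not recovered in all 12 libraries were left out. The genes not recovered in a group held 0.759% to 12.3% of the reads of its libraries and entered their totals at the group mean. The size factors lay within 0.0513% of median-of-ratios factors over all 12 libraries, so both tables share one normalization. Counting error was left to the fit across genes.

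limma (3.58.1, R 4.3.3) was fitted, with a trend of variance on mean, to log2(normalized reads + 1), for 14004 genes with a mean of 10 or more, over 12 libraries in 4 groups, with Benjamini-Hochberg adjustment over all genes tested and a threshold of 0.05. Folds on this scale understate the change of low genes. Recovery and fit were tested on simulated data. The GC correction was a loess fit (span 0.3) per library, for 13260 genes (94.69% of those tested) with a GC value. Ratios between genes were tested with scipy 1.17.1.

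The members and lists were chosen with earlier results of these data known. The text names all 6 members, from each list the genes past the threshold or else up to 2 with the smallest p, neighbours that start within 1000 bases on the opposite strand, and the 5 genes most like the members' mean. Some genes that this rule names are not reported here. The alternatives tried were the pseudocount, filter, scaling, GC correction, library weights, a fit within 6 libraries, the authors' test and leaving out libraries.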

Additional observations from a re-analysis of the deposited data

How the results depend on the processing

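No member was called in any of the 5 comparisons. For Luciferase B over A, library weights gave 2 calls (EXO1 and MSH3). For Luciferase over 6T in condition A, scaling by total reads gave 1 (EXO1), scaling by the upper quartile 1 (EXO1), library weights 2 (EXO1 and MSH3), and leaving out 1 library gave 0 to 2, with 2 only without Luciferase A2. The other alternatives gave 0, and the cause of these changes was not tested. Signs changed as follows, in values that passed no test. Under 6T B over A, PMS1 was −0.11 with library weights and −0.0489 in the authors' deposited table, PMS2 was 0.0194 after GC correction, and MLH3 was 0.0052 without both 6T A2 and Luciferase A1, a setting chosen after seeing the data. Leaving out 1 library there gave −0.0148 to 0.30 for MSH3, −0.19 to 0.24 for MSH6, −0.57 to 0.0082 for MLH3, −0.31 to 0.30 for PMS1 and −0.12 to 0.19 for EXO1. PMS2 under Luciferase B over A was −0.0416 with upper quartile scaling, −0.10 after GC correction, −0.0211 without those 2 libraries and −0.0223 to 0.0728 with 1 library left out. PMS2 was 0.0547 for Luciferase over 6T in condition A after GC correction. Its difference between sgRNAs was −0.0251 with upper quartile scaling and −0.12 after GC correction. For Luciferase over 6T in condition B, library weights gave 0.11 for MSH6 and 0.0892 for PMS1, and leaving out 1 library gave −0.21 to 0.12 and −0.40 to 0.15. Apart from PMS2, no member changed sign in Luciferase B over A, Luciferase over 6T in condition A or the difference between sgRNAs under any alternative run. Over all genes, the calls for Luciferase over 6T in condition A were 9, against 93 with a filter at 50, 283 with total reads, 675 with the upper quartile, 1705 with library weights, 15 after GC correction, 14 with a pseudocount of 8, 2 in a fit within 6 libraries, 0 without both libraries and 0 to 1030 with 1 library left out, the highest without Luciferase A2; for Luciferase B over A they were 0, against 267 with library weights and at most 1 otherwise. MLH3 has no value with a filter at 50. No paired analysis was possible because the deposited columns carry no replicate numbers. MLH3, with 7 to 98 reads a library, is limited by depth.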
